A study of Oryza sativa with 6 samples.

Results

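Small heat shock proteins outside the cytosolic class I group were followed in rice roots given copper or cadmium. The set holds 6 loci of the 29858 genes with a probe on the array, and 12 of its 42477 probes. They were chosen by locus number, taking every probe whose name starts with Os01g0184100, Os02g0758000, Os02g0782500, Os03g0245800, Os04g0445100 or Os06g0253100. The set was put together to cover class II, class III, plastid, mitochondrial and endoplasmic reticulum types. The array files give locus numbers and no gene names, and 0 of the 6 locus numbers and 0 of the 12 cDNA accessions in the probe names were found in the reference table used here. Which locus belongs to which type is therefore not stated, and the loci are given by number. By their numbers, 2 of them (Os02g0758000 and Os02g0782500) lie on chromosome 2, and Os01g0184100, Os03g0245800, Os04g0445100 and Os06g0253100 lie on chromosomes 1, 3, 4 and 6.

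Small heat shock proteins are chaperones that bind unfolding proteins without using ATP and hold them until other chaperones, such as the HSP70 and HSP100 families, can refold them. Plants make separate small heat shock proteins for the cytosol, plastids, mitochondria and the endoplasmic reticulum, each encoded in the nucleus and targeted to its compartment. Their transcripts are usually scarce in unstressed vegetative tissue and are switched on by heat shock factors, transcription factors that respond to heat and to other conditions that damage proteins.

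Roots of 6-day-old seedlings of the rice cultivar TN-67 (Oryza sativa) received 5 µM copper or 25 µM cadmium, and control roots of the same cultivar and age were kept in water. Each metal was read on 3 two-colour arrays, with the RNA of treated roots in the red dye Cy5 and that of control roots in the green dye Cy3, so every array gave a ratio of treated to control roots. No array had its dyes swapped, and against the control a dye effect and a metal effect cannot be told apart. The metals also differed in dose, and an effect of the metal cannot be told apart from one of the dose. How long the roots were exposed is not stated in the labels, and the samples are whole roots, so more RNA per cell and more cells that carry it cannot be told apart.

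Signals were well above background for 77.0% to 82.4% of probes in Cy5 and for 75.6% to 81.2% in Cy3, depending on the array. The filter on dim probes left 23414 genes to test. Copper 2, copper 3, cadmium 2 and cadmium 3 lay on 1 slide, and copper 1 and cadmium 1 each on another. The series lists 3 control replicates for the 6 arrays, so arrays of both metals may share control RNA. Levels below are normalized log2 intensities of a channel, ratios are log2 of treated over control, and tests are limma's on all 6 arrays with Benjamini-Hochberg adjustment over the 23414 genes.

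All 6 loci passed the filter and were tested. For Os03g0245800 and Os06g0253100 the control signal was not well above background on any of the 6 arrays, so these loci passed through the Cy5 channel alone, Os06g0253100 through its cadmium arrays only. A locus that passes through the channel or metal where it is high had to be higher there, so the counts are also given for the 4 loci measured in the controls. With cadmium all 6 rose (adjusted p under 0.05), where 21.1% of all genes tested rose, and these 6 include all 4 loci measured in the controls. With copper 4 of the 6 rose, where 25.4% of all genes rose, and Os02g0782500 and Os04g0445100 did not pass the test. Of the 4 loci measured in the controls 2 rose with copper, Os01g0184100 and Os02g0758000. Falls were called for 17.4% of all genes with copper and 12.9% with cadmium, and no locus of the set had a mean ratio below 0.

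**Figure D1:**
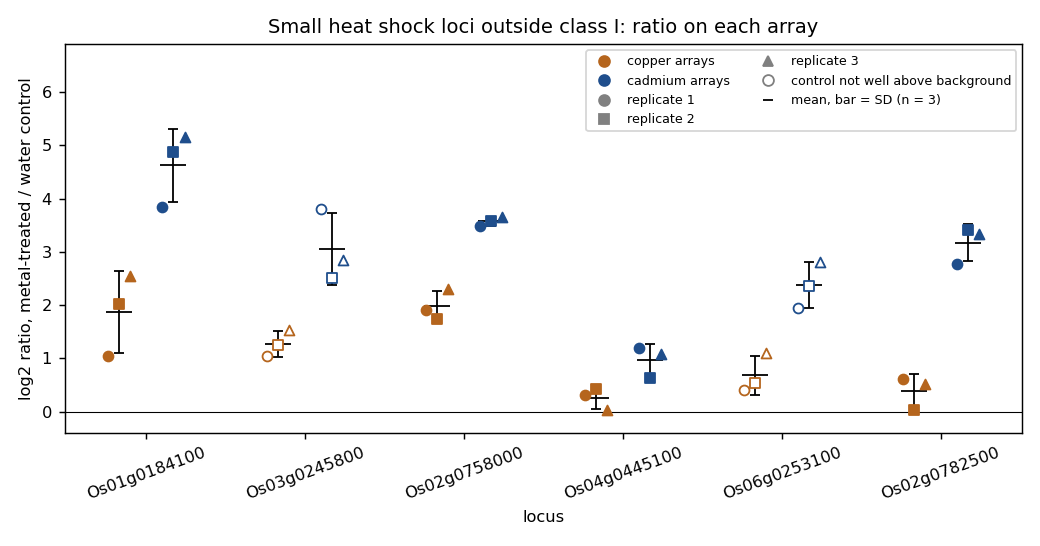
Log2 ratio of metal-treated to water-control roots for the tested probe of each locus, one point per array (circles, squares and triangles are replicates 1, 2 and 3), with the mean and SD of 3 arrays. Open points mark arrays whose control signal was not well above background. At each locus the 3 cadmium points lie above the 3 copper points, with the narrowest gap at Os04g0445100.

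Os01g0184100 had the highest cadmium ratio among the 4 loci whose controls were measured. Its level in control roots ran from 9.54 to 10.83 over the 6 arrays, with a median of 9.79. In copper roots the levels were 11.40, 11.55 and 12.20 on replicates 1 to 3, and in cadmium roots 14.68, 14.58 and 15.01. The 3 treatments did not overlap, with control lowest and cadmium highest. The copper ratios were 1.05, 2.02 and 2.55, which gave a rise of 1.87 ± 0.31 (SE, n = 3, adjusted p = 0.00234). The cadmium ratios were 3.84, 4.87 and 5.15, a rise of 4.62 ± 0.31 (SE, n = 3, adjusted p = 3.22e-05), or 24.6-fold. On copper 1 and cadmium 1, the arrays with the lowest ratio of their metal, the control level was also the highest of its 3 arrays, at 10.35 and 10.83. Among all genes tested the locus ranked 22 from the highest change with cadmium and 597 with copper.

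Os02g0758000 had the lowest SD between cadmium replicates among the 6 tested probes. Its control level lay between 10.20 and 11.45, with a median of 11.17. The levels in copper roots were 12.10, 13.10 and 13.75, and those in cadmium roots 14.52, 14.56 and 14.95, again without overlap. Copper ratios of 1.90, 1.74 and 2.30 gave a rise of 1.98 ± 0.11 (SE, n = 3, adjusted p = 1.13e-05), or 3.94-fold. With cadmium the ratios of 3.48, 3.58 and 3.65 had an SD of 0.09, and the rise was 3.57 ± 0.11 (SE, n = 3, adjusted p = 1.36e-06), or 11.9-fold. Copper 1 had the lowest level in both channels, and its ratio lay between those of the other copper arrays. The locus ranked 511 with copper and 95 with cadmium.

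Os02g0782500 rose with cadmium and was close to its controls with copper. The control level ran from 8.04 to 9.15, with a median of 8.81. In copper roots it stood at 9.30, 8.97 and 9.47, inside or just above the range of the controls. In cadmium roots it stood at 11.92, 11.45 and 11.52, above every control and copper value. The copper ratios of 0.62, 0.03 and 0.51 averaged 0.39 ± 0.15 (SE, n = 3), which did not pass (limma, adjusted p = 0.0748). It passed without copper replicate 2, the array nearest to 0 (0.57, adjusted p = 0.0421), and without cadmium replicate 1 (0.39, adjusted p = 0.0296). With cadmium the ratios were 2.77, 3.41 and 3.33, and the rise was 3.17 ± 0.15 (SE, n = 3, adjusted p = 6.79e-06), or 9-fold. Its rank was 129 with cadmium and 4854 with copper. The controls of this locus differed between the array sets. They averaged 8.86 on the copper arrays and 8.46 on the cadmium arrays, so that the treated roots differed by 2.39 where the ratios differed by 2.78.

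Os03g0245800 was read by 4 probes, and its control signal was not well above background with any of them. In control roots the tested probe gave levels between 5.79 and 6.52, with a median of 6.24, which are bounds and not measured levels. In copper roots the levels were 7.26, 7.49 and 7.74, and in cadmium roots 9.60, 8.94 and 9.36, all of them well above background. In the main processing the tested probe was 2.42-fold higher with copper (limma, adjusted p = 0.00286). With cadmium it was 8.31-fold higher (adjusted p = 4.79e-05). The 95% intervals of the log2 change ran from 0.76 to 1.78 with copper and from 2.54 to 3.57 with cadmium. These folds set the mean of the treated channel against a bound. On each array it was the higher of the dim probe's own signal and the lowest signal among probes well above background. The folds compare a Cy5 with a Cy3 signal and are open to dye bias. For this probe the bound was its own mean control signal. The folds are therefore estimates and not minimums, and hold for this probe and setting only. Over the other settings, with those that left out arrays, the log2 change ran between 1.03 and 4.51 with copper, where it was 1.27. With cadmium it ran between 2.68 and 6.11, where it was 3.05. Another probe of the locus, AK063618, gave 0.79 with copper and 2.28 with cadmium in the main processing.

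Os06g0253100, read by 1 probe, was also not well above background in any control, with a median level of 6.42 and none over 6.52. Copper roots gave 6.41, 6.96 and 7.51, of which the first was not well above background. Cadmium roots gave 7.84, 8.80 and 9.33, all well above it. Copper 1 lay within the range of the controls, copper 2 and 3 lay above it, and all 3 cadmium values lay higher still. In the main processing the locus was 5.17-fold higher with cadmium (limma, adjusted p = 6.16e-05), set against its own mean control signal, which is only a bound. The 95% interval of the log2 change ran from 1.95 to 2.79, so this fold is an estimate and not a minimum. It holds for that setting only, and without background correction the log2 change was 2.13 where it was 2.37. With copper the locus was measured on 2 of the 3 arrays and passed the test (adjusted p = 0.0179). No copper fold is given because copper 1 is itself a bound. That copper call was lost without copper replicate 2 (adjusted p = 0.0523) or copper replicate 3 (adjusted p = 0.119), with these arrays averaged and counted as 1 (0.0697), and once arrays of a slide were treated as a random block (adjusted p = 0.0933).

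**Figure D2:**
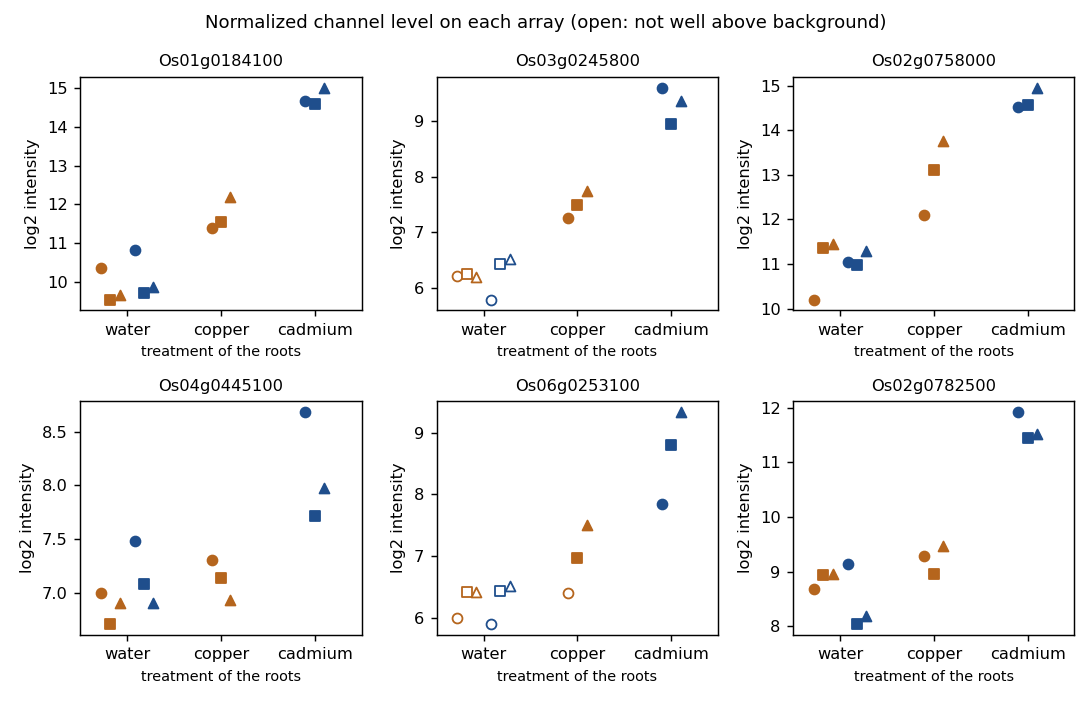
Normalized log2 intensity on each array for the tested probe of each locus, in water-control (Cy3), copper and cadmium roots (Cy5). Brown points come from copper arrays and blue points from cadmium arrays, shapes are replicates 1 to 3 as circles, squares and triangles, and open points were not well above background; the vertical axes differ and levels are not comparable between panels. Cadmium levels lie above all control levels in every panel, while copper levels of Os04g0445100 and Os02g0782500 lie within or near the range of the controls.

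Os04g0445100 had the smallest cadmium rise of the set. Its control level ran from 6.71 to 7.48 with a median of 6.95, well above background on all 6 arrays. The levels in copper roots, 7.30, 7.14 and 6.93, lay within that range. Those in cadmium roots were 8.68, 7.71 and 7.98, above every control. The copper ratios of 0.31, 0.43 and 0.02 averaged 0.25 ± 0.13 (SE, n = 3), which did not pass (limma, adjusted p = 0.139), with a 95% interval from -0.04 to 0.55. Cadmium ratios of 1.20, 0.63 and 1.07 gave a rise of 0.97 ± 0.13 (SE, n = 3, adjusted p = 0.00107), or 1.96-fold. The rank of the locus was 1278 with cadmium and 6622 with copper.

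All 6 loci were higher with cadmium than with copper (adjusted p between 0.000403 and 0.043), where 4.07% of all genes tested were and 6.58% were higher with copper. Os06g0253100 was kept through its cadmium arrays alone, so its place in this count was favoured by the filter. The 4 loci measured in the controls all passed. The 3 cadmium ratios lay above the 3 copper ratios for each of the 6 tested probes. By 1 probe per gene, 15.7% of genes showed this and 16.6% showed the opposite order. All 12 probes of the set showed it too, but they read only 6 loci and have no such share beside them. A dye effect that is the same on all arrays cancels in this comparison. The copper minus cadmium difference was -2.78 ± 0.22 (SE) for Os02g0782500 and -2.75 ± 0.44 for Os01g0184100, which differed by less than the SE of either. The next 3 lay close together, at -1.78 ± 0.31 for Os03g0245800, -1.69 ± 0.25 for Os06g0253100 and -1.59 ± 0.16 for Os02g0758000. The first 2 of these rest on controls that are only bounds, and their treated levels alone differed between the metals by 1.80 and 1.70. With the scanner's processed signals the difference at Os06g0253100 was -3.31. The smallest difference, -0.71 ± 0.18 (SE, adjusted p = 0.043) for Os04g0445100, missed the threshold with the replicate number as a block (adjusted p = 0.0504), without copper replicate 1, 2 or 3 or cadmium replicate 1 or 3 (adjusted p between 0.0592 and 0.155), and with copper replicates 2 and 3 counted as 1 (0.0988), no offset (0.0807) or median centring (0.0569). In the order of differences from the lowest of 23414 genes, Os02g0782500 ranked 19 and Os01g0184100 ranked 22, and the other 4 ranked between 107 and 632.

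The slide that held both metals carried 4 of the 6 arrays. For each tested probe every cadmium ratio lay above every copper ratio, so this slide could only give the same directions. Its 2 arrays of a metal correlated at 0.964 for copper and 0.95 for cadmium. Tests on this slide alone do not measure the spread between slides. With its 2 copper and 2 cadmium arrays the differences were -3.10 for Os02g0782500, -2.73 for Os01g0184100, -1.77 for Os06g0253100, -1.60 for Os02g0758000, -1.29 for Os03g0245800 and -0.62 for Os04g0445100, all past the threshold (adjusted p between 1.91e-06 and 0.0251), where 25.9% of all genes were called in either direction. All 6 differences also passed with a random block for the slide, where 25% of all genes were called in either direction. In both of these fits Os06g0253100 had been kept through its cadmium arrays alone. The 4 loci measured in the controls passed in both.

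**Figure D3:**
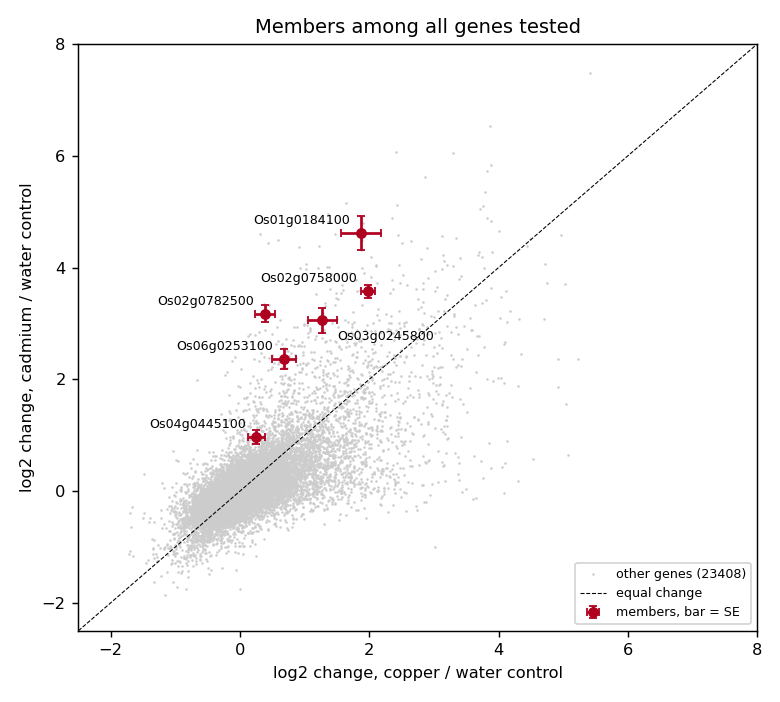
Log2 change with cadmium (vertical) against log2 change with copper (horizontal), both over water control, for 23414 genes, with the 6 loci in red and their standard errors. The axes may share control RNA. All 6 loci lie above the dashed line of equal change, Os01g0184100 at 4.62 with cadmium and Os04g0445100 at 0.97; the positions of Os03g0245800 and Os06g0253100 rest on controls that are only bounds.

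The loci with more than 1 probe were read the same way by each of their probes, which share a transcript and are not replicates. For Os02g0758000 the mean ratios of the probes AK074003, AK105464 and AK064389 were 1.98, 2.01 and 1.66 with copper and 3.57, 3.16 and 2.66 with cadmium. For Os02g0782500 the probe AK119261 gave 0.47 with copper, which passed when every probe was tested on its own (adjusted p = 0.0328, over 33703 probes), where the tested probe AK063602 gave 0.39 and did not (adjusted p = 0.0755). Both gave similar cadmium ratios, 3.27 ± 0.08 and 3.17 ± 0.35 (SD, n = 3). Of the 4 probes of Os03g0245800, AB020973, AK120048 and AK120045 were well above background in Cy5 on all 6 arrays, and AK063618 on all but copper 1. Their mean cadmium ratios ran from 2.28 for AK063618 to 3.09 for AK120048, against controls that are only bounds. On cadmium 1 the control signal of all 4 probes was at its lowest, between 5.57 and 5.79, and the ratio at its highest.

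**Figure D4:**
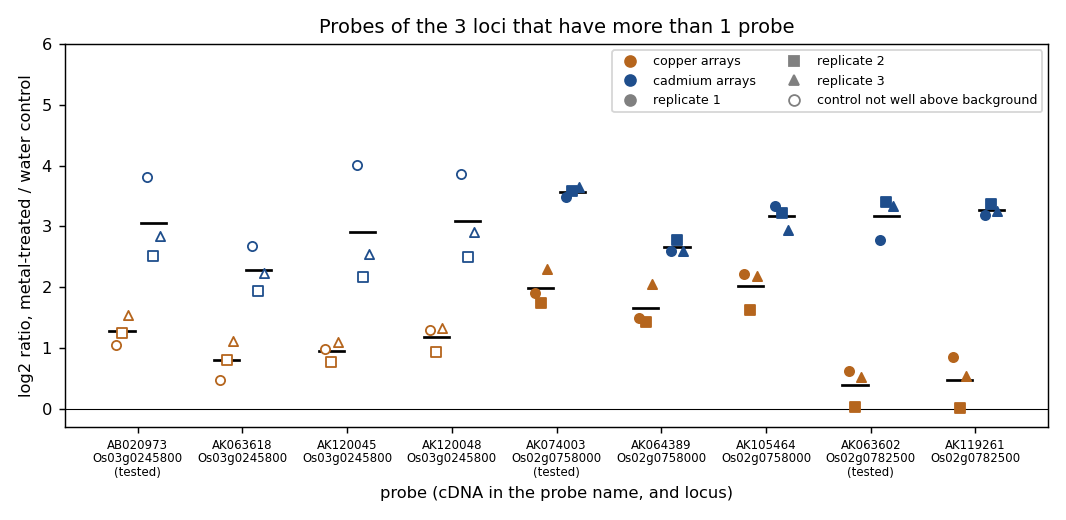
Log2 ratio on each array for the 9 probes of the loci with more than 1 probe, named by the cDNA accession in the probe name; black lines are means of 3 arrays, and open points mark a control signal not well above background. Within a locus every probe places cadmium above copper.

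The size of the ratio differed most between processing settings at the 2 loci with dim controls. Negative control spots stood 41.5 to 105 intensity units above their local background in Cy3 and 3 to 5.5 in Cy5. Taking these spots as the background moved the ratios little, to 1.32 with copper and 3.16 with cadmium for Os03g0245800 and to 0.64 and 2.46 for Os06g0253100. With the scanner's processed signals the mean ratio of Os03g0245800 was 4.37 ± 0.47 with copper and 6.03 ± 0.59 with cadmium (SD, n = 3), and that of Os06g0253100 was 1.62 ± 0.48 and 4.94 ± 0.56. Since the control signal is a bound, these ratios give no fold. At the bright locus Os02g0758000 they were 1.98 ± 0.29 and 3.62 ± 0.11, close to the values above. The cadmium ratio of Os01g0184100 went from 4.62 to 4.70 with these signals. That of Os02g0782500 went from 3.17 to 3.60 and that of Os04g0445100 from 0.97 to 1.29. The difference between the metals at Os04g0445100 went from -0.71 to -1.17. With median-centred processed signals the difference between the metals at Os03g0245800 was -1.60 and just missed the threshold (adjusted p = 0.0542).

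**Figure D5:**
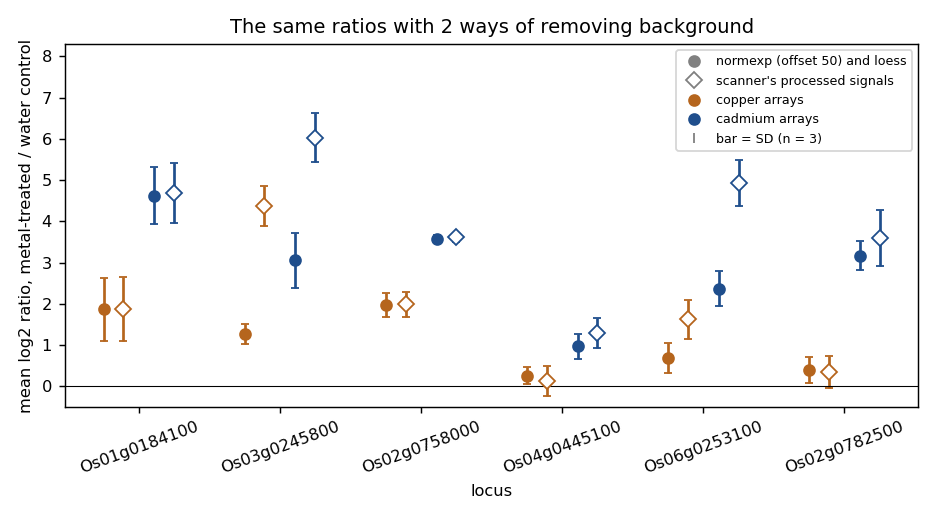
Mean log2 ratio and SD of 3 arrays for the tested probe of each locus, from local background correction with loess (filled circles) and from the scanner's processed signals (open diamonds), with copper in brown and cadmium in blue. The 2 settings nearly coincide for Os01g0184100 and Os02g0758000, and part most at Os03g0245800 and Os06g0253100, whose controls were not well above background.

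Other chaperone loci were counted in 6 lists, written from general knowledge of rice locus numbers. Neither the array files nor the reference table annotates these numbers, so no locus of the lists is named by its function. In the class I small heat shock list, 8 of 9 loci were tested, and 6 rose with copper and 7 with cadmium, with median changes of 0.74 and 1.96. Between the metals 4 of these 8 were higher with cadmium, where 4.07% of all genes tested were and 6.58% were higher with copper. Among its largest rises was that of Os03g0266900, of 3.86 with copper and 6.54 with cadmium. Of 10 tested loci listed as cytosolic HSP70, HSP90 and HSP101, 4 rose and 1 fell with copper and 6 rose with cadmium (medians 0.46 and 1.22). Among all genes tested 25.4% rose and 17.4% fell with copper, and 21.1% rose and 12.9% fell with cadmium, and lists of 5 or 6 loci can be set against these shares only loosely. The 6 loci listed as plastid chaperones had 5 falls with copper and 2 with cadmium (medians -0.43 and -0.25). Those listed as mitochondrial, also 6, had 1 rise and 3 falls with copper and 2 rises with cadmium (medians -0.30 and 0.02). The 5 listed as endoplasmic reticulum chaperones had 1 fall with copper and 1 rise with cadmium (medians -0.04 and 0.02). Of 21 tested heat shock factor loci, 10 rose with copper, and 13 rose and 1 fell with cadmium (medians 0.28 and 0.44). Higher with cadmium than with copper were 4 of the cytosolic HSP70, HSP90 and HSP101 list, 2 of the mitochondrial and 1 of the plastid list. In the heat shock factor list 5 were higher with cadmium and 2 with copper, and in the endoplasmic reticulum list none differed. For comparison, the median of the 6 small heat shock loci outside class I was 0.98 with copper and 3.11 with cadmium, and that of all genes tested was 0.02 and 0.01. The medians of the 6 rest partly on the dim controls, and with the scanner's processed signals they were 1.75 and 4.16. Over the 4 loci measured in the controls the medians were 1.13 and 3.37, and 1.12 and 3.61 with those signals.

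The genes whose ratios on the 6 arrays lay nearest to each of the 6 loci, by Euclidean distance over 22525 genes with a value on every array, were found as a description. Nearest to Os04g0445100 were Os09g0447500 (distance 0.43) and Os03g0823000 (0.52), and nearest to Os01g0184100 was Os11g0506800 (0.47), with mean ratios of 1.90 with copper and 4.79 with cadmium. The next gene to Os01g0184100, Os01g0373800, lay at 1.31, with a control well above background on 2 of the 6 arrays. Os06g0253100 lay nearest to Os05g0395400 (0.52) and Os12g0573600 (0.56), and Os02g0782500 to Os01g0692000 (0.57) and Os03g0267200 (0.77), the latter also in the class I list. Os02g0758000 lay nearest to Os01g0631800 (0.61) and Os09g0385700 (0.78), and Os03g0245800 to Os08g0545000 (0.71) and Os04g0538000 (0.78).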

How the data were processed

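Treated (Cy5) and control (Cy3) root RNA was read on 6 two-colour Agilent arrays, grouped by sample title. The deposited spot intensity values are output of Feature Extraction 10.7.1.1, per the file headers, and unnormalized. The processed intensity was background-subtracted, detrended and dye-normalized by that program, and the deposited log10 ratio is Cy5 over Cy3 of these, per the file headers. The authors' table of log2 ratios, for 42475 probes, followed the scanner's ratio with slopes of 0.9999 to 1.001. Its direction is treated over control, its column medians were -0.067, -0.161 and -0.191 (copper 1 to 3) and -0.0498, -0.145 and -0.0797 (cadmium 1 to 3), and its centring is not stated in the labels or headers.

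Median signals were corrected with normexp (offset 50) and loess, spots marked as outliers (at most 2.85% of an array) were left out, and a probe needed a signal well above background in 1 channel on every array of a metal. The brightest of 33703 kept probes per gene was tested in limma 3.58.1 (R 4.3.3), with 1 coefficient per metal, two-sided, at a threshold of 0.05. The number of arrays limits the precision, and the labels call replicates biological without saying whether cultures were separate. The 6 loci and all lists were chosen with earlier results of these data known. The text names all 6 loci, the 2 nearest genes of each and at most the 2 largest called changes of a list per metal.

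Same-numbered copper and cadmium arrays deviated together from their group means (correlations of 0.365, 0.245 and 0.269 over 22531 genes). The numbers of the titles were taken as pairs in an alternative fit. Copper 2 with cadmium 3 (0.233) and copper 3 with cadmium 2 (0.191) were similar, so these values do not tell numbers 2 and 3 apart. Arrays 2 and 3 of both metals also share a slide, so an effect of that slide and one of the replicate number cannot be told apart in these correlations.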

Additional observations from a re-analysis of the deposited data

Results flagged for a closer look

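Copper and cadmium ratios differed at each of the 6 loci by the test of the difference in the fit of all 6 arrays (limma, Benjamini-Hochberg over 23414 genes). The copper minus cadmium log2 difference was -2.78 for Os02g0782500, -2.75 for Os01g0184100, -1.78 for Os03g0245800, -1.69 for Os06g0253100, -1.59 for Os02g0758000 and -0.71 for Os04g0445100. Differences of this direction were called for 4.07% of all genes. Os06g0253100 was kept through its cadmium arrays alone, so its place among these loci was favoured by the filter. The 4 loci measured in the controls all passed. The metals were given at different doses, so metal and dose cannot be told apart in these values.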

How the results depend on the processing

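Changes of single loci were recomputed under up to 22 alternatives and the counts of loci under 23, one of them, negative control spots as the background, chosen after seeing the data. Of 384 recomputed log2 changes of single loci, 367 kept their side of the threshold, 14 lost a call and 3 gained one. None turned its sign, which many could not do. Other filters, the replicate block and fits of 1 metal left a log2 change as it was. In the main processing every ratio of the set was above 0, and each probe's cadmium ratios lay above its copper ratios. Leaving out arrays could therefore turn no sign. For these loci the authors' ratios equalled those of the scanner's processed signals. The cadmium count remained at all tested loci (6, or 4 with the strict filter). With probes well above background in both channels on all 6 arrays only 4 of the loci could be tested, since Os03g0245800 and Os06g0253100 dropped out. The count of rises with copper was then 2, where 43.8% of all genes tested were called in either direction. Leaving out 1 array gave between 3 and 5 rises with copper, 6 with cadmium and between 5 and 6 loci higher with cadmium than with copper. In these fits 24.6% to 49.8% of all genes were called with copper and 19.2% to 38.5% with cadmium, in either direction. Between the metals 5.36% to 13% were called. With the replicate number as a block 4 rose with copper, 6 rose with cadmium and 5 differed between the metals. The shares of all genes called in either direction were 51.9%, 44.1% and 16.3%. No call other than that of the Os04g0445100 difference changed with this block. With the mean of a locus's probes 5 rose with copper, where 44.4% of all genes were called in either direction. Over all alternatives the copper log2 change of Os03g0245800 ran between 1.03 and 4.51 and its cadmium change between 2.68 and 6.11, and those of Os06g0253100 ran between 0.47 and 1.76 and between 2.13 and 5.02. The correlation estimated among arrays of a slide was 0.664. The number of arrays and, at these 2 loci, the signal of the control over background limit what can be measured.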
